A study of Homo sapiens and Mus musculus with 55 samples.

Results

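Collagens are the triple-helical proteins of the extracellular matrix, and the genes described here are all rows of the 10 deposited tables whose symbol is COL, a number, A and a number. A row counted in a table when its normalized count averaged at least 10 over the table's libraries. By this rule 37 distinct collagen genes of 44 listed were kept, out of 53252 distinct gene symbols in the tables, with 18 to 31 in any 1 table. They comprised 11 fibrillar genes, 6 of the basement membrane, 8 of the FACIT class and 12 others. Of the 37, 14 passed in all 8 human tables, 16 in both mouse tables and 11 in all 10, while 7 listed genes passed nowhere.

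Each collagen molecule winds 3 alpha chains into a helix, and many types need chains from several genes. Fibrillar collagens form the fibrils of skin, bone and cartilage, type IV collagens form the sheet of basement membranes, and FACIT collagens (fibril-associated collagens with interrupted triple helices) sit on fibril surfaces. The others include the beaded filaments of type VI, the anchoring fibrils of type VII, the short-chain type VIII, transmembrane collagens and the multiplexins of types XV and XVIII. In breast tumours most fibrillar collagen is made by stromal fibroblasts, and tumour cells with mesenchymal traits can make collagens too.

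The series concerns repression of STING, the adaptor of cytosolic DNA sensing, by the transcription factor MYC in triple-negative breast cancer. RNA-seq was deposited for 55 libraries in 25 groups of 4 cell lines. Triple-negative human breast cancer gave MDA-MB-436 and SUM159PT (20 groups of 2 libraries), and mouse mammary tumours gave 4T1 and Py230 (5 groups of 3). Each of the 10 tables was normalized on its own, so values were compared within a table.

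The groups were as follows. Untreated cells labelled Tax-R stood against untreated parental cells (Par) in MDA-MB-436 and in SUM159PT. Tax-R cells of both human lines carrying MYC siRNA-1 (siMYC1) or MYC siRNA-2 (siMYC2) stood against Tax-R cells with a control siRNA (siC), so that every group in those tables was Tax-R. The same 3 siRNA treatments were given to 4T1 cells. In each human line a pair of STING sgRNA groups, C1 and C2 by their labels, stood against parental cells labelled Mock, and nothing says whether C1 and C2 are clones, pools or guides. STING sgRNA cells that also carried a STING open reading frame (ORF) stood against ones that carried a GFP ORF, so both arms of that comparison carried the sgRNA. Doxycycline was given to Py230 cells carrying a Sting1 shRNA in the Dox(+) group and vehicle in the Dox(-) group, and both arms carried the shRNA. No cells without the shRNA were given doxycycline in the samples used here, so the drug and the knockdown cannot be told apart.

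Values are normalized counts per library, and changes are log2 fold changes ± SE on the log2(value + 1) scale, which understates changes of low genes. "Higher" and "lower" mean that limma's test, fitted over all genes of a table, gave a Benjamini-Hochberg adjusted p below 0.05. Nothing in the labels says that the libraries of a group came from separate cultures, so p-values measure only the spread between these libraries. Statements that groups did not overlap describe the libraries printed. For genes already called this is close to given, so it adds no support to a call. The share of all genes without overlap is not given here. Recovered depth ran from 5663610 to 13191675 reads per library, and collagens took 958 to 12994 RPM (reads scaled to a common library total). In bulk RNA, fewer cells of a type and less RNA per cell cannot be told apart.

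The perturbed genes were read first as a check of the labels. STING1 (listed as TMEM173) was at 41.7 to 55.1 with STING sgRNA against 158 to 182 in Mock MDA-MB-436 cells, and at 92.7 to 114 against 229 to 261 in SUM159PT. With the STING ORF it was at 614 and 579 in MDA-MB-436, against 32.1 and 20.98 with the GFP ORF, and at 1599 and 1455 in SUM159PT, against 65.4 and 81.1 with the GFP ORF. Mouse Tmem173 was at 48.3, 47.5 and 42.9 in Dox(+) libraries and 841, 768 and 886 in Dox(-) libraries of Py230. MYC was clearly lower after MYC siRNA in SUM159PT alone, at 1426 to 1538 against 2663 to 2727 with siC. It was at 1897 to 1930 against 2019 to 2058 in MDA-MB-436, and in 4T1 the ranges overlapped, at 2220 to 2407 against 2390 to 2595, so these transcripts check the siRNA labels weakly or not at all.

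The human lines showed a collagen repertoire in which some partner chains were all but missing. Per kilobase of exon in parental MDA-MB-436 cells, COL5A2 was at 407 ± 8.58 normalized counts, COL1A1 at 354 ± 10.9, COL6A3 at 325 ± 7.47, COL12A1 at 294 ± 5.12, COL5A1 at 277 ± 0.634 and COL11A1 at 266 ± 0.999 (SD, n = 2). COL1A2, whose chain joins 2 COL1A1 chains in common type I collagen, was at 0.57 ± 0.0493 on that scale. Its table mean was at most 3.43 normalized counts in the human tables, below the limit of 10 in each. In parental SUM159PT cells the levels per kilobase were led by COL12A1 at 396 ± 4.79, COL11A1 at 365 ± 2.62, COL5A2 at 364 ± 11.05 and the short-chain COL8A1 at 343 ± 15.5, while COL1A1 was at 189.8 ± 2.55 and COL1A2 at 0.0911 ± 0.129 (SD, n = 2). COL5A2 and COL11A1 differed there by less than the SD of COL5A2.

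Type IV chains were divided in the same way. COL4A5 and COL4A6, which assemble together in the basement membranes of smooth muscle and some epithelia, were at 166 ± 2.48 and 183 ± 0.896 normalized counts per kilobase in parental MDA-MB-436 cells. The widespread pair COL4A1 and COL4A2 was at 0.362 ± 0.142 and 1.36 ± 0.015 on that scale (SD, n = 2). In the mouse line 4T1 Col4a1 and Col4a2 were abundant, with table means of 5452 and 4651 normalized counts. Col4a5 was present there too, at a lower table mean of 838, while Col4a6 was low. Py230 had a table mean of 7.95 for Col4a1 and 1805 for Col4a5, as in the human lines. Both mouse lines were also short of type V and VI partners, with table means for Col5a2 of 2.44 in 4T1 and 5.83 in Py230, and for Col6a3 of 1.41 and 3.16.

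The 6 type IV genes lie in 3 head-to-head pairs, each pair reading outward from a short shared stretch. Sequence from these stretches is shown because the paired genes can be followed together through the comparisons. Only the stretch between COL4A1 and COL4A2 is shown whole. Those of the other pairs are shown in part, as the 250 bases before COL4A3 and before COL4A5. In RefSeq's GRCh38.p14 promoter table, 28 of the 37 genes had an entry, and 126 bases separate the starts of COL4A2 and COL4A1, 379 those of COL4A5 and COL4A6, and 418 those of COL4A3 and COL4A4. The 250 bases before each start were searched on both strands for 4 short motifs. They were the CCAAT box, the E-box CACGTG that MYC can bind, the TATA box as TATAAA, and the GC box as GGGCGG. No matches overlap one another in the sequences printed. Capitals mark the matches, written as they read on the printed strand, so ATTGG is a CCAAT box and CCGCCC a GC box of the other strand. The first sequence is the whole stretch between COL4A1 and COL4A2 (chr13:110307158-110307283, plus strand), the second precedes COL4A3 (chr2:227164374-227164623, plus strand), the third precedes COL4A5 (chrX:108439588-108439837, plus strand). The fourth precedes COL12A1 (chr6:75206054-75206303, minus strand), which was among the collagens most often higher in the human comparisons.
COL4A2 with COL4A1: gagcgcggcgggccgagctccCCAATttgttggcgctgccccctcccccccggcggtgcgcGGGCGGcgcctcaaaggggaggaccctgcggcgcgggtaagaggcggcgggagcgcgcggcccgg
COL4A3: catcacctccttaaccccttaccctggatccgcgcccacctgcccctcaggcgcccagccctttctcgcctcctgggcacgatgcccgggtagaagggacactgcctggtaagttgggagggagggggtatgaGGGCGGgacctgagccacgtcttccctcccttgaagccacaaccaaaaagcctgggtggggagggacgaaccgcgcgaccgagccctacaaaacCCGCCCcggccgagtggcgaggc
COL4A5: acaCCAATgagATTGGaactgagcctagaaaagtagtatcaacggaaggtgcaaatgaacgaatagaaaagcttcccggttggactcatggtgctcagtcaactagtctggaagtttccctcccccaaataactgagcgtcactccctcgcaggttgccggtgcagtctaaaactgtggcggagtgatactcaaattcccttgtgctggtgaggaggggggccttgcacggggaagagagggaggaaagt
COL12A1: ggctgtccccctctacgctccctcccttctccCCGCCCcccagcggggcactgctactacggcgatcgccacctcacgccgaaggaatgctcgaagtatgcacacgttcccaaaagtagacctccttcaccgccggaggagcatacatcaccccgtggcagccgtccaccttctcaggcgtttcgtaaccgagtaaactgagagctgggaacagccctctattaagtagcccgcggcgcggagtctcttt
The COL4A5 window holds the CCAAT box 2 times and the stretch between COL4A1 and COL4A2 holds the CCAAT box and the GC box 1 time each. The CCAAT box is in 32% of all 35116 promoter windows of 250 bases, the GC box in 42.6%, the TATA box in 10.7% and the E-box in 6.34%. These shares do not apply to the stretch between COL4A1 and COL4A2, which is only 126 bases long. No window of the 28 collagens with an entry holds CACGTG. COL1A1, COL1A2, COL2A1, COL3A1, COL5A2, COL6A1, COL8A1, COL9A3 and COL20A1 had no entry, so their windows were not searched. A match is a description of letters and not of binding.

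Among members close to the limit of 10, COL5A3 was just inside at a table mean of 10.2 and COL14A1 just outside at 8.61 in the table of Tax-R and parental MDA-MB-436 cells. In the corresponding SUM159PT table COL19A1 was inside at 10.1 and COL9A2 outside at 9.87, and in Py230 Col4a3 was inside at 11 and Col4a4 outside at 9.92. A member that passes only through the group where it is high has to differ, and up to 9 members of a comparison had a group mean under 10, so the counts below describe the genes that passed. Antisense partners of collagens were low, with the highest, COL5A1-AS1, at a table mean of 22.4. Whether counting used the strand is not stated in these sources.

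**Figure D1:**
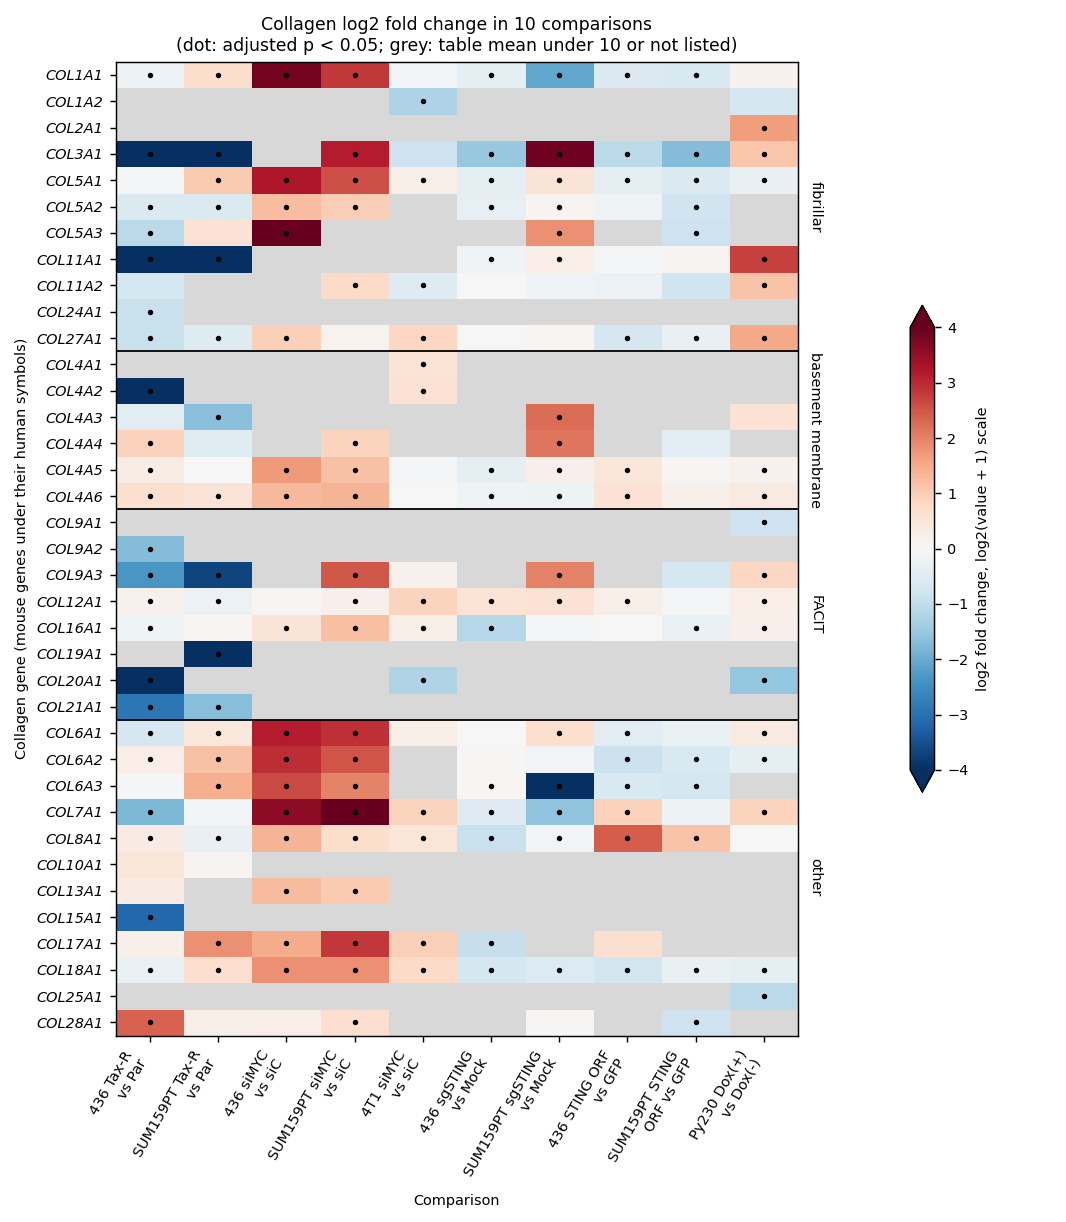
Log2 fold change of each collagen gene (rows, grouped by class) in the 10 comparisons (columns), perturbed or Tax-R group minus its control, red higher and blue lower, limited at 4 in both directions. Dots mark adjusted p below 0.05 and grey marks genes with a table mean under 10 or not listed. The 2 human columns of MYC siRNA hold 16 and 20 dots, all red, and the other columns mix both colours.

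MDA-MB-436 Tax-R cells had no read of the fibrillar collagen COL11A1 and little COL3A1, and had less type VII collagen, while COL4A5 and COL4A6 were moderately higher. Of 31 collagens tested, 7 were higher, against 27.7% of all 19085 genes tested, and 17 were lower, against 26.9% of all genes. The median change of the 31 was -0.41, against 0.01 over all genes. Of the 31, 9 had a Tax-R mean under 10 and passed the limit only through the parental libraries. The 2 Tax-R libraries differed from each other by less than sampling noise over all genes (chi-square per gene 0.855, where sampling alone gives about 1), though by 2.40 per gene over 25 collagens. Counted as 1 sample, they gave the same 7 higher and 17 lower calls.

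Fibrillar genes were lower in 7 of 9 cases in MDA-MB-436 Tax-R cells. COL11A1, a chain of the type XI collagen that nucleates thin fibrils, had 0 and 0 in the Tax-R libraries, against 2421 and 2409 in the parental libraries. With no read in 1 group, the fold is a bound, at least 1589-fold lower when the empty group is set to 3 reads. COL3A1, the chain of type III collagen of skin and vessels, had 25.02 and 34.9 in Tax-R against 771 and 651 in Par (-4.54 ± 0.14, limma adjusted p = 1.1e-09). Both genes were thus far below every parental library. COL5A3, the least abundant type V chain, had 6.01 and 6.16 in Tax-R and 17.9 and 10.6 in parental libraries (-1.06 ± 0.34), a call that was lost in 4 alternative settings. COL5A2, which shapes fibril diameter, was at 2004 and 2100.2 in Tax-R against 2992 and 3082 in Par (-0.57 ± 0.04). COL1A1, the main chain of type I collagen, was at 2945 and 3082 in Tax-R and 3404 and 3555 in parental libraries (-0.21 ± 0.04). The groups did not overlap for these 3 genes, and the COL1A1 change was small. COL5A1 was at 2909.6 and 3080.05 in Tax-R against 3101 and 3091 in Par and did not pass (adjusted p = 0.30).

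Basement membrane genes went in both directions in that comparison, with 3 of 5 higher and 1 lower. COL4A6 had 2568 and 2678 in Tax-R libraries against 1706 and 1694 in parental libraries (0.63 ± 0.04, limma adjusted p = 9.0e-08), and its head-to-head neighbour COL4A5 had 2378 and 2500.4 in Tax-R against 1986 and 1944 in Par (0.31 ± 0.04). COL4A4, a chain of the glomerular basement membrane, had 34.03 and 42.1 in Tax-R and 20.5 and 18.3 in parental libraries (0.93 ± 0.22). All 3 were higher in both Tax-R libraries than in either parental one, and the COL4A4 call was lost by DESeq2 (adjusted p = 0.10). COL4A3, the head-to-head neighbour of COL4A4, changed by -0.41 ± 0.31 and did not pass. COL4A2 had 0 and 1.03 in Tax-R libraries, a single read in all, against 26.4 and 26.01 in parental libraries, a ratio of 51.1 to 1 (95% counting interval 8.96 to 2087).

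FACIT genes were lower in 5 of 6 cases in MDA-MB-436 Tax-R cells, against 26.9% of all genes, mostly at low levels. COL9A2, COL9A3, COL20A1 and COL21A1 had Tax-R means under 10 and passed the limit only through the parental group. Their direction was therefore close to given. COL20A1 had 0 and 0 in Tax-R against 40.1 and 37.6 in parental cells, at least 25.5-fold lower, and COL21A1 had 1.001 and 4.1 in Tax-R against 24.7 and 21.2 in Par (-2.90 ± 0.44, or -2.23 and -3.58 without Tax-R replicate 1 and 2). COL9A3, a chain that decorates cartilage fibrils, had 3.003 and 3.08 in Tax-R and 27.3 and 13.5 in parental libraries (-2.32 ± 0.38). The abundant members moved little. COL12A1, which binds type I fibrils, was at 4107 and 4219 in Tax-R against 3619 and 3709 in Par (0.18 ± 0.03, higher), and COL16A1 was at 1755 and 1755 in Tax-R against 2023 and 1953 in Par (-0.18 ± 0.04, lower).

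Among the other classes 3 of 11 were higher and 4 lower. COL7A1, the anchoring fibril of skin, had 1091 and 1066 in Tax-R libraries against 3789 and 3701 in parental libraries (-1.80 ± 0.03, limma adjusted p = 4.2e-11). COL15A1, a multiplexin of basement membrane zones, had 1.001 and 3.08 in Tax-R against 21.3 and 26.98 in Par (-3.13 ± 0.40), and COL28A1 had 85.1 and 92.3 in Tax-R against 12.8 and 21.2 in Par (2.36 ± 0.23). COL28A1 was thus the member with the largest rise, from a low level. The 3 chains of type VI, which must combine to form beaded filaments, went in different directions. COL6A1 had 669.6 and 731 in Tax-R and 1136 and 1076 in parental libraries (-0.66 ± 0.05). COL6A2 had 777 and 950.1 in Tax-R against 711 and 718 in Par (0.27 ± 0.07). COL6A3 had 6029 and 6416 in Tax-R against 6269 and 6476 in Par and did not pass. COL18A1, the source of endostatin, was at 707 and 779.8 in Tax-R against 886 and 886 in Par (-0.25 ± 0.05), and the hemidesmosome collagen COL17A1 at 197 and 195 in Tax-R against 182 and 159 in Par (adjusted p = 0.079).

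Genes that act on collagens were mixed in the same cells, where 27.7% of all genes were higher and 26.9% lower. Of 18 folding and modification genes 3 were higher and 5 lower, led by the lysyl hydroxylase PLOD3 (0.51 ± 0.04). Of 10 processing and cross-linking genes 5 were higher and 4 lower. The cross-linking enzyme LOX changed by -3.15 ± 0.23, the propeptide protease ADAMTS3 changed by -2.92 ± 0.17 and LOXL1 by 1.5 ± 0.24. Of 8 receptors 4 were higher and 4 lower, including the integrin subunits ITGA10 (-1.37 ± 0.17) and ITGA11 (1.22 ± 0.40). Other cells' markers moved as well. The 8 fibroblast markers that are not collagens summed to 939.8 to 998 in Tax-R and 1396 to 1434 in parental libraries. Leukocyte markers, mostly PTPRC, summed to 293 to 427 in Tax-R against 2099 to 2201 in Par, and epithelial markers to 1982 to 2093 in Tax-R against 2843 to 2893 in Par. CD3E was at 0 in Tax-R libraries. Endothelial markers summed to 167 to 205 in Tax-R against 285 to 303 in Par, with CDH5 and KDR at 0 in Tax-R libraries. Their part in the collagen values was not tested.

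SUM159PT Tax-R cells shared the loss of COL11A1 and COL3A1 but had more COL1A1, COL5A1 and type VI collagen. Of 25 collagens tested, 8 were higher, against 23.5% of all 18370 genes tested, and 10 were lower, against 22.1% of all genes. Their median change was 0.01, as it was over all genes. Of the 25, 6 had a Tax-R mean under 10 and passed the limit only through the parental libraries.

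In the fibrillar class 2 of 7 were higher and 4 lower in SUM159PT Tax-R cells. COL11A1 had 3.07 and 2.97 in Tax-R libraries, against 3301 and 3335 in parental libraries (-9.69 ± 0.11, limma adjusted p = 1.6e-10). COL3A1 had 6.14 and 0.99 in Tax-R against 545 and 525 in Par (-7.15 ± 0.47), or -8.07 and -6.23 without Tax-R replicate 1 and 2. Both genes were nearly silent in every Tax-R library and abundant in every parental one. COL5A1 had 2268 and 2380.1 in Tax-R and 1132 and 1139 in parental libraries (1.03 ± 0.04), and COL1A1 had 3026 and 3104 in Tax-R against 1881 and 1846 in Par (0.72 ± 0.04). COL5A2, the usual partner of COL5A1, had 1810.4 and 1855 in Tax-R against 2657 and 2773 in Par (-0.57 ± 0.04), so the 2 type V chains moved in opposite directions without overlap between groups.

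Type IV genes of SUM159PT Tax-R cells gave 1 higher and 1 lower call among 4. COL4A6 had 1862 and 1943 in Tax-R libraries against 1362 and 1285 in parental libraries (0.52 ± 0.04). COL4A5 had 2133 and 2211 in Tax-R against 2146 and 2157 in Par, overlapping groups (adjusted p = 0.80), and COL4A3 had 8.18 and 7.92 in Tax-R against 29.5 and 25.7 in Par (-1.66 ± 0.27). The head-to-head pair COL4A5 and COL4A6 therefore did not share a call here. COL4A4, the neighbour of COL4A3, changed by -0.48 ± 0.19 and did not pass (limma adjusted p = 0.067).

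FACIT members were lower in 4 of 5 cases, against 22.1% of all genes. COL19A1, found in the basement membrane zone of muscle, had 0 and 0 in Tax-R libraries against 22.4 and 17.9 in parental libraries, at least 13.3-fold lower. COL9A3 had 1.02 and 1.98 in Tax-R, 3 reads in all, against 33.5 and 27.97 in Par, a ratio of 20.5 to 1 (95% counting interval 6.68 to 102), and COL21A1 had 5.11 and 7.92 in Tax-R against 20.3 and 25.7 in Par (-1.69 ± 0.32). These 3 were low genes with Tax-R means under 10. They passed the limit only through the parental group, so their direction was close to given. COL12A1 was at 4085 and 4247 in Tax-R and 4896 and 4981 in parental libraries (-0.25 ± 0.04, lower), and COL16A1 was at 1844 and 1882 in Tax-R against 1853 and 1705 with overlapping groups.

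Beaded filament and other genes were higher in 5 of 9 cases and lower in 1 in this line. COL6A3 had 7608 and 7725 in Tax-R libraries against 2829.7 and 2901 in parental libraries (1.42 ± 0.04, limma adjusted p = 6.6e-09). COL6A2 had 929 and 976 in Tax-R against 382 and 465 in Par (1.17 ± 0.08), and COL6A1 had 749.7 and 781 in Tax-R against 581 and 566 in Par (0.42 ± 0.05). All 3 chains of type VI were higher without overlap, by unequal amounts. COL17A1 had 76.7 and 88.1 in Tax-R and 25.4 and 20.1 in parental libraries (1.82 ± 0.20), and COL18A1 had 655 and 701 in Tax-R against 435 and 408 in Par (0.68 ± 0.06). COL7A1, at -1.80 in MDA-MB-436, had a change of -0.10 ± 0.12 here and did not pass. The difference between the lines was not tested.

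The processing genes of SUM159PT Tax-R cells gave 5 higher and 2 lower calls among 11, the folding genes 3 and 5 among 18, and the receptors 3 and 4 among 8. Over all genes 23.5% were higher and 22.1% lower. LOX averaged 41.3 ± 0.95 in Tax-R and 666 ± 98.7 in parental libraries (SD, n = 2 each, -3.97 ± 0.12). The propeptide protease ADAMTS2 changed by 4.64 ± 0.50, LOXL1 by 2.32 ± 0.40, the collagen galactosyltransferase COLGALT2 by -1.08 ± 0.15 and the collagen uptake receptor MRC2 by 1.44 ± 0.06. Fibroblast markers summed to 285 to 334 in Tax-R and 802 to 856 in parental libraries, with LUM at 0 in Tax-R libraries. Leukocyte markers summed to 31.7 to 42.96 in Tax-R against 569 to 597 in Par, with CD3E not listed. Endothelial markers summed to 113 to 138 in Tax-R against 374 to 383 in Par, and epithelial markers to 2011 to 2066 in Tax-R against 3111 to 3149 in Par. Their part in the collagen values was not tested.

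**Figure D2:**
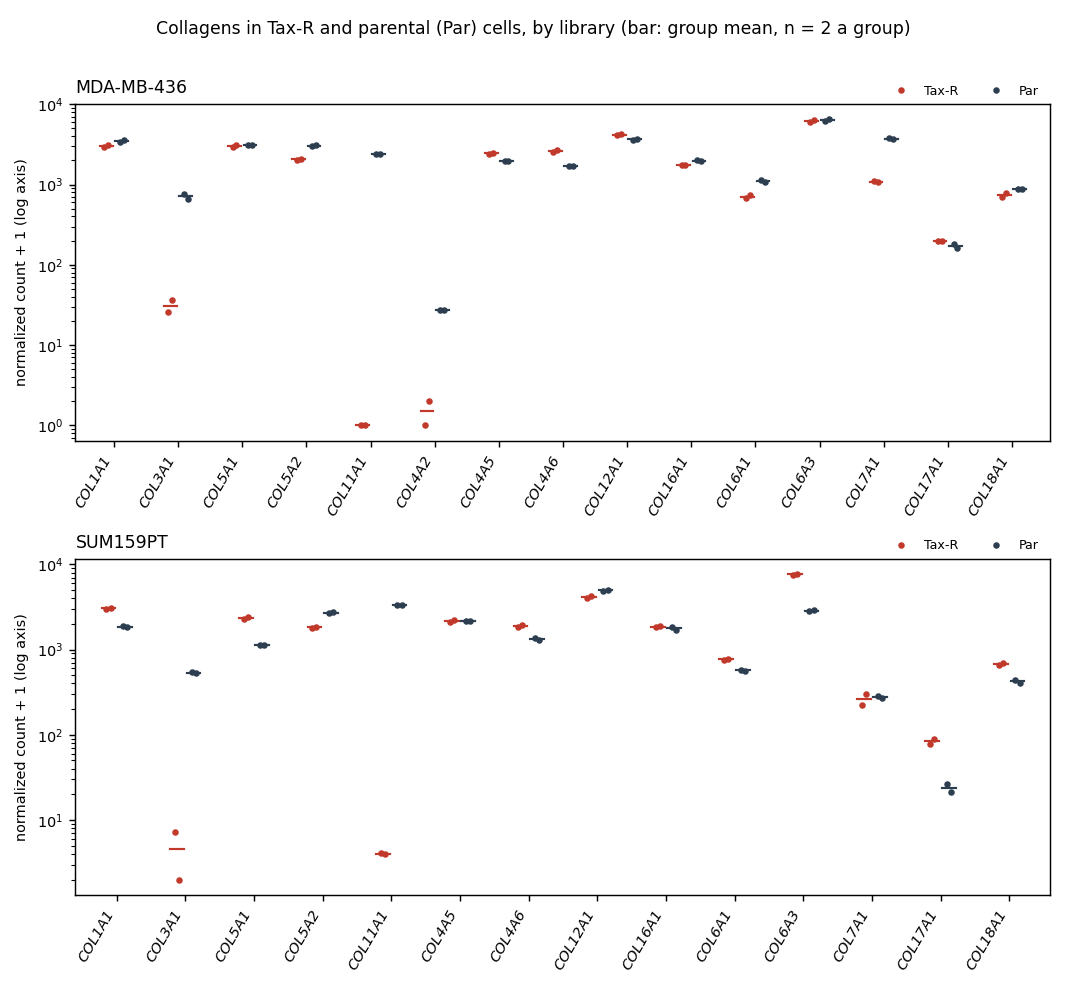
Normalized count + 1 (log axis) of 15 collagens in MDA-MB-436 and 14 in SUM159PT, each point a library and each bar a group mean, Tax-R in red and parental (Par) in dark blue. COL11A1 and COL3A1 stand far apart in both lines, while COL6A3 and COL5A1 are higher in Tax-R cells of SUM159PT.

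After MYC siRNA almost every collagen that passed the limit was higher in Tax-R cells of both human lines, the largest share called in 1 direction among the 10 comparisons. In MDA-MB-436 collagens took 6113 and 6023 RPM with siMYC1 and 5657 and 5598 with siMYC2, against 1466 and 1449.7 with siC. Of 18 collagens tested 16 were higher, against 34% of all 15399 genes tested. No collagen was lower by limma, also at an unadjusted p below 0.05 (0 of 18) and by edgeR and DESeq2, while 33.7% of all genes were. The median change of the 18 was 1.58, against -0.01 over all genes.

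All 5 fibrillar genes that passed in this table were higher. COL1A1 had 7233 and 7208 with siMYC1 and 6500.2 and 6329 with siMYC2, against 479 and 471 with siC (3.84 ± 0.03, limma adjusted p = 1.0e-35). COL5A1 had 8277 and 8147 with siMYC1 and 7432 and 7300.1 with siMYC2, against 875 and 792 with siC (3.22 ± 0.03). COL5A2 had 2283 and 2213 with siMYC1 and 2205 and 2164 with siMYC2, against 887 and 979 with siC (1.25 ± 0.04). All MYC siRNA libraries stood above both siC libraries for these 3 genes. COL5A3 had 118 and 113 with siMYC1 and 96.7 and 86.8 with siMYC2, against 2.13 and 0 with siC, 2 reads in all. The ratio of means was 97.3 to 1 (95% counting interval 28.2 to 848), and its log2 change of 5.88 became 6.70 and 5.05 without siC replicate 1 and 2. COL3A1 and COL11A1, already nearly lost from Tax-R cells, did not reach the limit in this table.

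Both type IV genes that passed were higher. COL4A5 had 2519 and 2479 with siMYC1 and 2455 and 2435 with siMYC2, against 805 and 730.1 with siC (1.69 ± 0.04). COL4A6 had 2518 and 2519 with siMYC1 and 2407 and 2372 with siMYC2, against 997 and 1002 with siC (1.29 ± 0.03). The pair thus moved together without overlap between groups. The 2 FACIT genes moved less. COL16A1 had 1113 and 1057 with siMYC1 and 997 and 1066 with siMYC2, against 749 and 718 with siC (0.53 ± 0.05). COL12A1 had 2219 and 2245 with siMYC1 and 2130.1 and 2153 with siMYC2, against 2096 and 2174 with siC, overlapping groups (adjusted p = 0.34).

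Among the other classes 8 of 9 were higher in MDA-MB-436 Tax-R cells. COL7A1 had 1992 and 1873 with siMYC1 and 1765 and 1746 with siMYC2, against 150.2 and 155 with siC (3.58 ± 0.05, limma adjusted p = 3.2e-30). COL6A1 had 1244 and 1197 with siMYC1 and 1174 and 1059 with siMYC2, against 113 and 155 with siC (3.13 ± 0.08). COL6A2 had 1504 and 1480.3 with siMYC1 and 1368 and 1297 with siMYC2, against 196 and 167 with siC (2.96 ± 0.06). All 4 MYC siRNA libraries stood above both siC libraries for each. COL6A3 had 7339 and 7238 with siMYC1 and 6752 and 6804 with siMYC2, against 1191 and 1084 with siC (2.63 ± 0.03). COL18A1 had 1657 and 1646 with siMYC1 and 1557 and 1547 with siMYC2, against 426 and 466 with siC (1.84 ± 0.04). COL17A1 had 178 and 146 with siMYC1 and 163 and 146 with siMYC2, against 61.8 and 50.5 with siC (1.48 ± 0.12). None of these groups overlapped, and COL28A1 (0.28 ± 0.31) was the second gene besides COL12A1 that did not pass.

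Genes that act on collagens were mostly higher, where 34% of all genes were higher and 33.7% lower. Of 18 folding and modification genes 16 were higher and 1 lower, including the lysyl hydroxylases PLOD2 (1.25 ± 0.04) and PLOD1 (1.19 ± 0.03) and P3H4 (1.0 ± 0.05). Of 8 processing and cross-linking genes 5 were higher and 2 lower, and LOXL1 averaged 96.8 ± 10.3 with MYC siRNA (n = 4) against 22.7 ± 4.98 with siC (n = 2, SD, 2.06 ± 0.16). The procollagen C-proteinase BMP1 changed by 1.56 ± 0.05 and the cross-linking enzyme LOXL2 by 1.55 ± 0.04. All 7 receptors tested were higher, led by the integrin subunit ITGA11 (3.17 ± 0.36), the receptor kinase DDR1 (1.91 ± 0.10) and MRC2 (1.83 ± 0.05). Fibroblast markers summed to 455 to 474 with siMYC1 and 463 to 479 with siMYC2, against 117 to 139 with siC, with LUM at 0 in both MYC siRNA groups and DCN at 0 with siC. Epithelial markers summed to 4874 to 4883 with siMYC1 and 4749 to 4840.3 with siMYC2, against 3988 to 4002 with siC. Endothelial markers summed to 38.9 to 48.8 with siMYC1 and 51.2 to 60.3 with siMYC2, against 19.4 to 23.4 with siC. Leukocyte markers summed to 20.9 to 27.3 with siMYC1 and 18.02 to 21.2 with siMYC2, against 30.1 to 38.3 with siC. The part of these 4 lists in the collagen values was not tested.

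The 2 MYC siRNAs differed from each other for 1 of 18 collagens in MDA-MB-436, against 0.117% of all genes lower with siMYC2. COL1A1 averaged 6415 ± 121 with siMYC2 and 7221 ± 17.9 with siMYC1 (SD, n = 2 each, -0.17 ± 0.03, limma adjusted p = 0.022). The call was lost without filtering, after quantile normalization and without any 1 of the 4 MYC siRNA libraries, and the count was 2 without either siC library. In SUM159PT and 4T1 limma called 0 collagens between the siRNAs, as did edgeR and DESeq2. Limma also called 0 of all 15796 and 0 of all 14081 genes there, so these counts are not particular to collagens. At an unadjusted p below 0.05 the counts were 0 of 21 collagens in SUM159PT and 1 of 19 in 4T1, against 600 and 372 of all genes. In MDA-MB-436 that count was 5 of 18, all lower with siMYC2, against 1569 of all 15399 genes.

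In SUM159PT Tax-R cells the response was as wide, with COL7A1, COL6A1 and COL1A1 showing some of the largest changes. Collagens took 12830.4 and 12584 RPM with siMYC1 and 12736 and 12994 with siMYC2, against 3692 and 3541 with siC. Of 21 collagens tested 20 were higher, against 35% of all 15796 genes tested. None was lower by limma, also at an unadjusted p below 0.05 (0 of 21) and by edgeR and DESeq2, while 34.5% of all genes were. Their median change was 1.34, against -0.01 over all genes. The difference in response between the lines was not tested.

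Fibrillar genes were higher in 5 of 6 cases in SUM159PT Tax-R cells. COL1A1 had 25778 and 24798 with siMYC1 and 25435 and 26653 with siMYC2, against 3851 and 3340.1 with siC (2.84 ± 0.03, limma adjusted p = 6.1e-48). COL5A1 had 11918 and 11653 with siMYC1 and 11875 and 12118 with siMYC2, against 2093 and 1899 with siC (2.58 ± 0.03). COL5A2 had 4377 and 4415 with siMYC1 and 4410.3 and 4259 with siMYC2, against 2207 and 2196 with siC (0.99 ± 0.04). As in MDA-MB-436, the change of COL5A1 was larger than that of its partner COL5A2, by more than the SE of both. COL3A1 had 20.9 and 24.6 with siMYC1 and 21.5 and 16.7 with siMYC2, against 0.961 and 2.07 with siC, 3 reads in all, a ratio of 13.8 to 1 (95% counting interval 4.65 to 69.6). This stayed far below the 525 to 545 of parental SUM159PT cells in their own table, whose scale was set separately.

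All 3 type IV genes tested were higher. COL4A6 had 2102 and 2132 with siMYC1 and 2111 and 2207 with siMYC2, against 848 and 834 with siC (1.34 ± 0.04). COL4A5 had 2864 and 2923 with siMYC1 and 2905 and 2949 with siMYC2, against 1232 and 1349 with siC (1.17 ± 0.04). COL4A4 had 18.8 and 15.5 with siMYC1 and 12.3 and 17.7 with siMYC2, against 12.5 and 5.17 with siC, where the groups overlapped and the call was lost in 7 alternative settings. The 3 FACIT genes were higher as well. COL9A3 had 12.5 and 22.8 with siMYC1 and 24.6 and 24.6 with siMYC2, against 3.85 and 2.07 with siC (2.47 ± 0.36). It passed the limit only through the MYC siRNA groups. COL16A1 had 2857 and 2805 with siMYC1 and 2784 and 2863 with siMYC2, against 1283 and 1198 with siC (1.19 ± 0.04). COL12A1 had 1546 and 1572 with siMYC1 and 1484 and 1545 with siMYC2, against 1368 and 1298 with siC, a small change (0.21 ± 0.04).

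All 9 genes of the other classes were higher in SUM159PT Tax-R cells. COL7A1 had 2005 and 2130.5 with siMYC1 and 2121 and 2139.7 with siMYC2, against 120.2 and 123 with siC (4.10 ± 0.05, limma adjusted p = 5.8e-47). COL6A1 had 1396 and 1438 with siMYC1 and 1489 and 1580.2 with siMYC2, against 199.99 and 184 with siC (2.93 ± 0.06). COL6A2 had 1129.5 and 1041 with siMYC1 and 1132 and 1156 with siMYC2, against 206 and 184 with siC (2.51 ± 0.06). COL7A1 had the largest fold change here, and each type VI chain was several-fold higher. COL6A3 had 24878 and 23729 with siMYC1 and 24619.8 and 24528 with siMYC2, against 6345 and 6057 with siC (1.98 ± 0.03). COL17A1 had 62.7 and 65.6 with siMYC1 and 50.2 and 43.3 with siMYC2, against 7.69 and 6.21 with siC (2.82 ± 0.23). COL18A1 had 1834 and 1762 with siMYC1 and 1861 and 1864 with siMYC2, against 540.4 and 491 with siC (1.83 ± 0.05). No MYC siRNA library overlapped a control library for these 6 genes.

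Folding and modification genes were higher in 14 of 18 cases and lower in 1 in SUM159PT Tax-R cells, where 35% of all genes were higher and 34.5% lower, with P3H4 at 1.42 ± 0.06 and PLOD1 at 1.01 ± 0.04. Processing genes were higher in 5 of 8 cases, among them LOXL1 (1.66 ± 0.15) and BMP1 (1.34 ± 0.04). Receptors were higher in 6 of 8 cases and lower in 1, among them ITGA11 (2.74 ± 0.31), DDR1 (1.77 ± 0.04) and MRC2 (1.61 ± 0.04). LOXL1, BMP1, LOXL2, ITGA11, DDR1 and MRC2 were higher in both human lines. Fibroblast markers summed to 1026 to 1068 with siMYC1 and 1009.6 to 1045 with siMYC2, against 422 to 435 with siC, with PDPN at 0 with siMYC1. Epithelial markers summed to 5728 to 5768 with siMYC1 and 5861 to 6005 with siMYC2, against 4598 to 4609 with siC. In SUM159PT endothelial markers summed to 153 to 155 with siMYC1 and 139 to 172 with siMYC2, against 63.5 to 75.5 with siC. In SUM159PT leukocyte markers summed to 32.8 to 39.7 with siMYC1 and 28.7 to 30.5 with siMYC2, against 61.5 to 71.4 with siC, and the part of these lists in the collagen values was not tested.

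**Figure D3:**
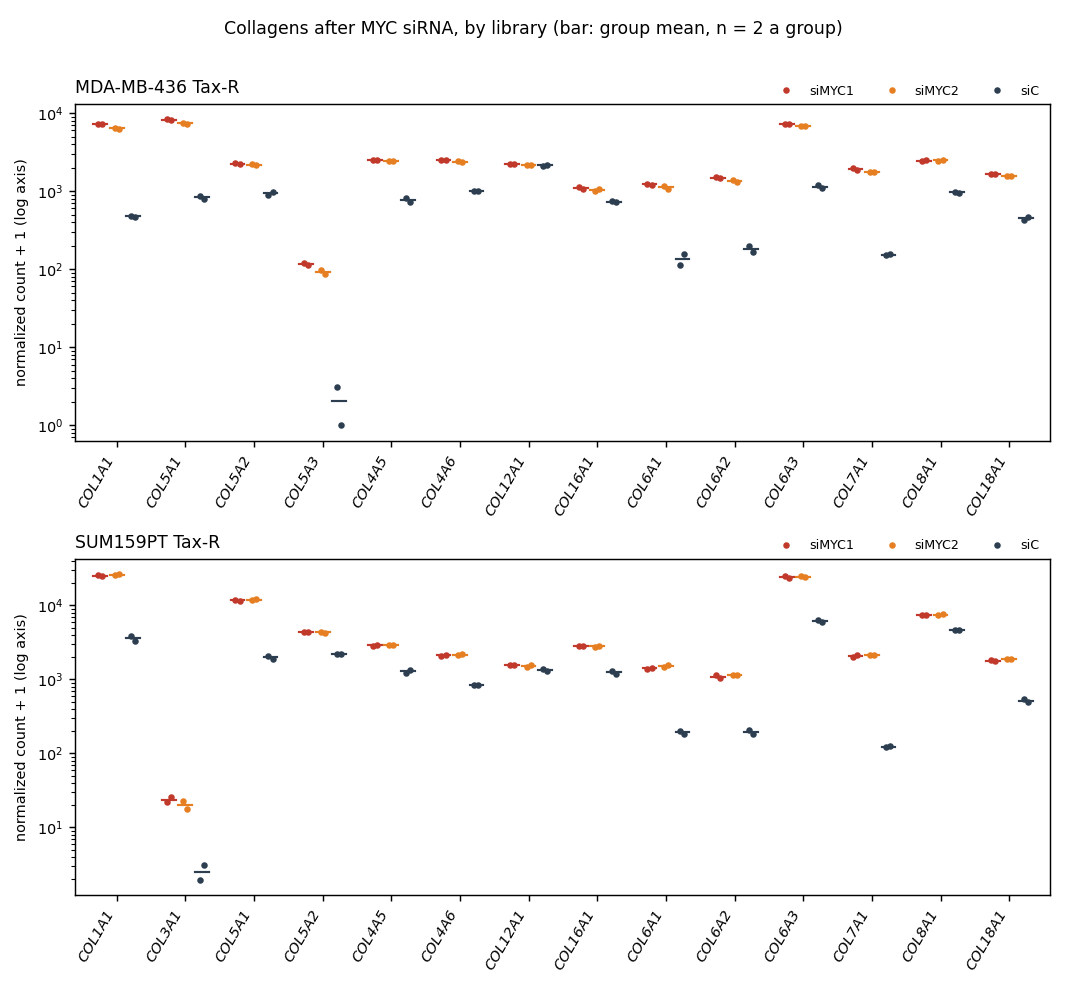
Normalized count + 1 (log axis) of 14 collagens per human line after siMYC1 (red), siMYC2 (orange) and siC (dark blue), each point a library and each bar a group mean. Both MYC siRNAs sit together above siC for every gene shown except COL12A1, which overlaps in MDA-MB-436 and is 1.15-fold higher in SUM159PT.

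In mouse 4T1 cells MYC siRNA was followed by smaller collagen changes, with Col4a1, Col4a2, Col7a1, Col12a1 and Col18a1 higher. Of 19 collagens tested, 10 were higher, against 24.7% of all 14081 genes tested, and 3 were lower, against 21.5% of all genes. Their median change was 0.25, against -0.0048 over all genes.

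The abundant pair Col4a1 and Col4a2 rose together. Col4a1 had 6093, 6366 and 6271 with siMYC1 and 5853, 5882 and 6181 with siMYC2, against 4236, 4365 and 3822 with siC (0.56 ± 0.04, limma adjusted p = 3.4e-11). Col4a2 had 4967, 5393 and 5505 with siMYC1 and 5118, 4953 and 5347 with siMYC2, against 3545, 3677 and 3358 with siC (0.56 ± 0.04). All 6 MYC siRNA libraries exceeded all 3 control libraries for both genes. Col4a5 had 723, 904 and 966 with siMYC1 and 762, 782 and 819 with siMYC2, against 857, 855 and 874 with siC, and Col4a6 had 14.6, 23.7 and 29.9 with siMYC1 and 17.04, 18.3 and 28.9 with siMYC2, against 18.9, 27.5 and 19.6 with siC. Neither of this pair passed, at adjusted p of 0.39 and 0.95.

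Of 5 genes of the other classes 4 were higher in 4T1 cells. Col7a1 had 2823, 3498 and 3454 with siMYC1 and 3156, 3074 and 3294 with siMYC2, against 1899, 1595 and 1663 with siC (0.90 ± 0.06). Col18a1 had 3353, 3781 and 3694 with siMYC1 and 3429.9, 3450.3 and 3611 with siMYC2, against 2217, 2019 and 1997 with siC (0.77 ± 0.04). Col17a1 had 9.72, 12.8 and 9.98 with siMYC1 and 16.1, 15.1 and 10.95 with siMYC2, against 4.49, 5.16 and 8.26 with siC (0.96 ± 0.29), at low levels. These 3 groups did not overlap. Col8a1 changed by 0.50 ± 0.04, and Col6a1 had 63.2, 58.4 and 62.1 with siMYC1 and 56.5, 56.0 and 53.8 with siMYC2, against 50.3, 43.03 and 51.7 with siC (adjusted p = 0.10).

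FACIT genes gave 2 higher and 1 lower call among 4. Col12a1 had 142, 140.5 and 135 with siMYC1 and 139, 125 and 130.4 with siMYC2, against 65.5, 74.01 and 80.6 with siC (0.88 ± 0.10). Col20a1 had 34.03, 32.8 and 39.9 with siMYC1 and 17.9, 21.5 and 23.9 with siMYC2, against 53.9, 67.1 and 74.4 with siC (-1.21 ± 0.17). Col16a1 had 1289, 1737 and 1638 with siMYC1 and 1489, 1484 and 1493 with siMYC2, against 1359, 1313 and 1173 with siC (0.24 ± 0.06), with 1 siMYC1 library inside the control range. Col12a1 and Col20a1 thus separated cleanly in opposite directions.

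Among 6 fibrillar genes of 4T1 cells 2 were higher and 2 lower, and all but Col5a1 were at low levels. Col5a1 had 661, 784 and 717 with siMYC1 and 685, 663 and 691 with siMYC2, against 616, 595 and 559.9 with siC (0.25 ± 0.05). Col27a1 had 15.8, 14.6 and 13.3 with siMYC1 and 8.97, 19.4 and 9.96 with siMYC2, against 6.28, 8.61 and 6.2 with siC (0.84 ± 0.28), and Col11a2 had 34.03, 41.96 and 34.4 with siMYC1 and 34.97, 33.4 and 42.8 with siMYC2, against 58.4, 53.4 and 46.5 with siC (-0.50 ± 0.16). These 3 groups did not overlap. Col1a1 had 31.6, 83.9 and 37.7 with siMYC1 and 90.6, 39.8 and 33.9 with siMYC2, against 49.4, 72.3 and 38.2 with siC, and did not pass. Col1a2 had 4.86, 32.8 and 11.1 with siMYC1 and 59.2, 5.38 and 6.97 with siMYC2, against 30.5, 49.1 and 20.7 with siC (-1.22 ± 0.50, limma adjusted p = 0.047), a call lost in 13 alternative settings. Col3a1 had 4.86, 31.01 and 7.76 with siMYC1 and 39.5, 2.15 and 8.96 with siMYC2, against 16.2, 30.98 and 13.4 with siC, and did not pass. For all 3 the highest library of each group was the same, siMYC1 replicate 2, siMYC2 replicate 1 and siC replicate 2, and the groups overlapped.

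Of 15 folding genes 10 were higher and 1 lower in 4T1 cells, led by the prolyl 4-hydroxylase subunit P4ha2 (0.75 ± 0.12). The shares over all genes were 24.7% higher and 21.5% lower. Among 7 processing genes 2 were higher, Bmp1 (0.60 ± 0.04) and Loxl4 (0.25 ± 0.05), and among 6 receptors 3 were higher and 1 lower, led by the shared integrin subunit Itgb1 (0.55 ± 0.04). Epithelial markers summed to 23649 to 24119 with siMYC1 and 22754 to 24103 with siMYC2, against 18004 to 19345 with siC, and fibroblast markers to 189 to 211 with siMYC1 and 175 to 197 with siMYC2, against 144 to 187 with siC. Leukocyte markers summed to 199 to 244 with siMYC1 and 191 to 208 with siMYC2, against 196 to 202 with siC. Endothelial markers summed to 6.08 to 9.98, 4.31 to 11.95 and 7.18 to 9.47 in the same order. The part of these lists in the collagen values of 4T1 was not tested.

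With a STING sgRNA, MDA-MB-436 cells had less of most collagens, by modest amounts, with COL12A1 as the clear exception. Of 18 collagens tested, 2 were higher, against 24.8% of all 15305 genes tested, and 12 were lower, against 23% of all genes. The median change was -0.34, against 0.01 over all genes.

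Fibrillar genes were lower in 5 of 7 cases in MDA-MB-436 cells with STING sgRNA. COL3A1 had 61.1 and 71.99 in C1 and 64 and 69.6 in C2, against 206 and 181 in Mock (-1.52 ± 0.13, limma adjusted p = 8.9e-11). COL1A1 had 3691 and 3727 in C1 and 3320 and 3132 in C2, against 4571 and 4522 in Mock (-0.39 ± 0.03). COL5A1 had 2757 and 2750.2 in C1 and 2494 and 2409 in C2, against 3499.7 and 3373 in Mock (-0.40 ± 0.03). COL3A1 fell by far the most. COL5A2 had 1865 and 1779.9 in C1 and 1790 and 1801 in C2, against 2219 and 2274 in Mock (-0.31 ± 0.04). COL11A1 had 833 and 851 in C1 and 795 and 821 in C2, against 903 and 918 in Mock (-0.14 ± 0.05), a call that DESeq2 lost (adjusted p = 0.091). None of the 5 groups overlapped.

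COL4A5 and COL4A6 were both lower in these cells. COL4A5 had 824 and 825 in C1 and 791 and 853 in C2, against 1034 and 1097 in Mock (-0.37 ± 0.05), and COL4A6 had 944 and 868 in C1 and 898 and 841 in C2, against 988 and 1002 in Mock (-0.17 ± 0.05). The 2 FACIT genes went apart. COL12A1 had 1227 and 1146 in C1 and 1082 and 1203 in C2, against 757 and 839.9 in Mock (0.54 ± 0.05). COL16A1 had 412 and 463 in C1 and 380 and 398 in C2, against 925 and 914 in Mock (-1.16 ± 0.06).

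Of 7 genes of the other classes 4 were lower and 1 higher with STING sgRNA in MDA-MB-436. COL17A1 had 59.1 and 77.2 in C1 and 56 and 56.3 in C2, against 132 and 105 in Mock (-0.92 ± 0.15). COL8A1 had 587 and 499 in C1 and 580 and 526 in C2, against 1055 and 992 in Mock (-0.90 ± 0.06). COL18A1 had 827 and 801 in C1 and 705 and 658 in C2, against 1252 and 1158 in Mock (-0.69 ± 0.05). These 3, with COL7A1 (-0.52 ± 0.04), were below Mock in all 4 libraries. Type VI was nearly level. COL6A3 had 14317 and 13713 in C1 and 12970 and 12862 in C2, against 12915 and 12707 in Mock (0.07 ± 0.02), and its call was lost in 6 alternative settings. COL6A1 had 3128 and 3122 in C1 and 2832 and 2561 in C2, against 2922 and 2845 in Mock, and COL6A2 had 2477 and 2560.3 in C1 and 2381 and 2316 in C2, against 2433 and 2292 in Mock, with no call for either.

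Folding genes gave 4 higher and 7 lower calls among 18, processing genes 1 and 1 among 10, and receptors 1 and 4 among 6. Over all genes 24.8% were higher and 23% lower. The uptake receptor MRC2 changed by -0.84 ± 0.06, the C-proteinase enhancer PCOLCE by -0.59 ± 0.05, the collagen chaperone FKBP10 by -0.40 ± 0.04 and ITGB1 by 0.62 ± 0.03. Between C2 and C1, 5 of 18 collagens were lower in C2, against 0.666% of all genes. They were COL18A1 (-0.26 ± 0.06), COL6A1 (-0.21 ± 0.04), COL1A1 (-0.20 ± 0.04), COL5A1 (-0.17 ± 0.04) and COL6A3 (-0.12 ± 0.03), and without filtering none of the 5 calls was kept. The count was 0 without C2 replicate 2 and 2 without either Mock library. Fibroblast markers, with DCN, LUM and PDPN not listed, summed to 410 to 413 in C1 and 403 to 421 in C2, against 338 to 348 in Mock. Endothelial markers summed to 91.2 to 99.1 in C1 and 100 to 130 in C2, against 72 to 79 in Mock. Epithelial markers summed to 5816 to 5855 in C1 and 5534 to 5617 in C2, against 6437 to 6465 in Mock. Leukocyte markers, almost all PTPRC, summed to 1231 to 1249 in C1 and 1283 to 1323 in C2, against 1023 to 1049 in Mock, with CD3E not listed. The part of these lists in the collagen values was not tested.

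SUM159PT cells with a STING sgRNA showed an exchange of collagens. COL3A1 was 15.1-fold higher, while COL6A3 was 19.1-fold and COL1A1 4.28-fold lower. Of 22 collagens tested, 11 were higher, against 19.3% of all 15168 genes tested, and 6 were lower, against 19.8% of all genes. Their median change was 0.09, against -0.0037 over all genes.

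In the fibrillar class 5 of 8 were higher and 1 lower. COL3A1 had 1509 and 1435 in C1 and 1302 and 1373 in C2, against 92.5 and 93.1 in Mock (3.90 ± 0.06, limma adjusted p = 4.4e-40). COL1A1 had 282 and 243 in C1 and 249 and 253 in C2, against 1144 and 1052 in Mock (-2.09 ± 0.07). COL5A3 had 245 and 247 in C1 and 209 and 188 in C2, against 53.4 and 71.03 in Mock (1.83 ± 0.11). COL3A1 and COL1A1 were apart from Mock in every sgRNA library, in opposite directions. COL5A1 had 859.8 and 819.8 in C1 and 807 and 732 in C2, against 562 and 571 in Mock (0.50 ± 0.05). COL11A1 had 1171 and 1119.6 in C1 and 1107 and 1149 in C2, against 919 and 991 in Mock (0.25 ± 0.05). COL5A2, which lies next to COL3A1 on chromosome 2, had 1146 and 1126 in C1 and 1042 and 1083 in C2, against 962 and 1059.7 in Mock (0.12 ± 0.05). The COL5A2 groups overlapped and its call was lost in 9 alternative settings, so the neighbours did not share the size of the change.

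A further type IV pair passed the limit in this comparison, where 3 of 4 type IV genes were higher and 1 lower. COL4A3 had 16.1 and 11.5 in C1 and 20.6 and 28.8 in C2, against 1.91 and 4.8 in Mock (2.23 ± 0.37). COL4A4, which starts 418 bases away, had 135 and 124 in C1 and 126 and 134 in C2, against 26.7 and 30.7 in Mock (2.14 ± 0.14). Both of the pair were several-fold higher by similar log2 amounts. COL4A3 had 7 reads in all in Mock and passed the limit only through the sgRNA groups. In Tax-R cells the pair did not share a call in either human line. COL4A5 had 935 and 906 in C1 and 958 and 892 in C2, against 775 and 825 in Mock (0.20 ± 0.05), and COL4A6 had 427 and 447 in C1 and 374 and 416 in C2, against 452 and 508 in Mock (-0.21 ± 0.07). The COL4A6 call was lost by DESeq2 (adjusted p = 0.14).

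FACIT genes were higher in 2 of 3 cases in SUM159PT with STING sgRNA. COL9A3 had 28.5 and 40.9 in C1 and 23.7 and 26.8 in C2, against 7.63 and 5.76 in Mock (1.99 ± 0.28). It passed the limit only through the sgRNA groups. COL12A1 had 4052 and 4125 in C1 and 4509 and 4557 in C2, against 2742 and 3051 in Mock (0.57 ± 0.04). COL16A1 had 1194 and 1145 in C1 and 1049 and 1026 in C2, against 1126 and 1139 in Mock, and did not pass. COL12A1 was thus higher with the sgRNA in both human lines.

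Type VI chains came apart in SUM159PT, where 1 of 7 genes of the other classes was higher and 4 lower. COL6A3 had 81.6 and 58.7 in C1 and 53.5 and 61.8 in C2, against 1172 and 1265 in Mock (-4.25 ± 0.11, limma adjusted p = 2.5e-31). COL6A1 had 780.1 and 755 in C1 and 692 and 686 in C2, against 446 and 475 in Mock (0.66 ± 0.06). COL6A2 had 493 and 466 in C1 and 411 and 401 in C2, against 488 and 470.3 in Mock (-0.12 ± 0.06), and did not pass. The 3 chains of 1 filament thus showed a large fall, a moderate rise and no call. COL7A1 had 17.1 and 15.7 in C1 and 11.3 and 13.4 in C2, against 45.8 and 45.1 in Mock (-1.61 ± 0.26), and COL18A1 had 810.4 and 778 in C1 and 564 and 544 in C2, against 982 and 937 in Mock (-0.53 ± 0.05).

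Of 18 folding genes 2 were higher and 5 lower, of 9 processing genes 4 and 1, and of 7 receptors 4 and 2. The shares over all genes were 19.3% higher and 19.8% lower. The propeptide protease ADAMTS3 changed by 1.84 ± 0.30, LOXL1 by 1.33 ± 0.35, LOX by 1.09 ± 0.10, ITGA10 by -1.06 ± 0.20 and MRC2 by 0.79 ± 0.06. Between C2 and C1, 1 of 22 collagens was higher, against 8.53% of all genes, and 3 were lower, against 11.4% of all genes. COL18A1 averaged 554 ± 14.2 in C2 and 794 ± 23.1 in C1 (SD, n = 2 each, -0.52 ± 0.06), and the others were COL12A1 (0.15 ± 0.04), COL16A1 (-0.17 ± 0.05) and COL6A2 (-0.24 ± 0.07). The count of 4 was 1 without C1 replicate 1 or either C2 library. Leukocyte markers summed to 3.8 to 6.29 in C1 and 1.03 to 5.14 in C2, against 99.2 to 119.98 in Mock, almost all of it PTPRC. Fibroblast markers, with LUM not listed, summed to 177 to 183 in C1 and 197 to 208 in C2, against 206 to 227 in Mock, and endothelial markers, mostly KDR, to 168 to 172 in C1 and 163 to 175 in C2, against 52.8 to 57.2 in Mock. Epithelial markers summed to 11524 to 11526 in C1 and 10256 to 10275 in C2, against 9563 to 9994 in Mock. The part of these markers in the collagen values was not tested.

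In cells with the sgRNA, those that carried the STING ORF had more of the short-chain collagen COL8A1 in both human lines and less COL1A1, COL5A1 and COL6A2. In MDA-MB-436, 5 of 18 collagens were higher, against 9.2% of all 14851 genes tested, and 8 were lower, against 11.9% of all genes. The median change was -0.19, against -0.01 over all genes. COL8A1, which forms the hexagonal network of the corneal endothelium and is found in vessel walls, had 2411 and 2452 with the STING ORF, against 445 and 457 with the GFP ORF (2.43 ± 0.08, limma adjusted p = 8.5e-23). COL7A1 had 1741 and 1581 with the STING ORF against 904 and 863 with the GFP ORF (0.91 ± 0.08). No STING ORF library overlapped a GFP ORF library for either gene.

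Among fibrillar genes of MDA-MB-436, 4 of 7 were lower with the STING ORF. COL3A1 had 12.3 and 9.72 with the STING ORF against 21.1 and 27.7 with the GFP ORF (-1.08 ± 0.34), a low gene whose call was lost in 3 alternative settings. COL27A1, a minor fibrillar chain, had 331 and 322 with the STING ORF against 523 and 513 with the GFP ORF (-0.67 ± 0.10), and COL1A1 had 1946 and 1825 with the STING ORF against 2796 and 2857 with the GFP ORF (-0.58 ± 0.07). These 3 genes were below both GFP ORF libraries. COL5A1 had 1371 and 1324 with the STING ORF against 1883 and 1683 with the GFP ORF (-0.40 ± 0.08). COL5A2 had 1343 and 1377 with the STING ORF against 1470.4 and 1545 with the GFP ORF, and COL11A1 had 509.9 and 525 with the STING ORF against 516 and 547 with the GFP ORF, with no call for either.

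The pair COL4A5 and COL4A6 rose together with the STING ORF in MDA-MB-436. COL4A6 had 577 and 574 with the STING ORF against 404 and 365 with the GFP ORF (0.58 ± 0.09), and COL4A5 had 595 and 611 with the STING ORF against 472 and 410.1 with the GFP ORF (0.45 ± 0.09). COL12A1 had 2095 and 2066 with the STING ORF against 1714 and 1801 with the GFP ORF (0.24 ± 0.07), and COL16A1 had 387 and 410.2 with the STING ORF against 423 and 369 with the GFP ORF and did not pass. All 3 type VI chains fell. COL6A2 had 858 and 738 with the STING ORF against 1458 and 1404 with the GFP ORF (-0.85 ± 0.08). COL6A3 had 4715 and 4657 with the STING ORF against 7384 and 6855 with the GFP ORF (-0.60 ± 0.07), and COL6A1 had 1277 and 1112 with the STING ORF against 1756 and 1489 with the GFP ORF (-0.44 ± 0.08). COL18A1 fell as well, at 560.2 and 482 with the STING ORF against 953 and 788 with the GFP ORF (-0.74 ± 0.09), while COL17A1 had 46.96 and 48.6 with the STING ORF against 34.9 and 25.8 with the GFP ORF (adjusted p = 0.051). Without filtering of low genes, which adds many genes to the adjustment, 8 collagens were called in place of 13.

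In SUM159PT, 1 of 21 collagens was higher with the STING ORF, against 13.2% of all 14915 genes tested, and 11 were lower, against 12.8% of all genes. The median change was -0.41, against 0.01 over all genes. COL8A1, the 1 that was higher, had 4529 and 4797 with the STING ORF, against 2038 and 2168 with the GFP ORF (1.15 ± 0.06, limma adjusted p = 1.3e-13). COL3A1 had 247 and 228 with the STING ORF, against 809 and 778 with the GFP ORF (-1.74 ± 0.10, limma adjusted p = 2.9e-13). With the STING ORF COL3A1 was thus 3.34-fold lower, and with the sgRNA in the separate comparison of this line it was 15.1-fold higher. In MDA-MB-436 COL3A1 was lower with the sgRNA (-1.52) and with the ORF (-1.08). Whether the ORF reverses the change seen with the sgRNA was not tested.

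Fibrillar genes of SUM159PT were lower in 6 of 8 cases with the STING ORF. COL5A3 had 66.9 and 68.3 with the STING ORF against 128 and 115 with the GFP ORF (-0.84 ± 0.16). COL5A2 had 531 and 545 with the STING ORF against 917 and 951 with the GFP ORF (-0.79 ± 0.09), and COL5A1 had 289 and 291 with the STING ORF against 409 and 462 with the GFP ORF (-0.58 ± 0.11). All 3 type V chains were lower without overlap. COL1A1 had 209 and 148 with the STING ORF against 275 and 267 with the GFP ORF (-0.62 ± 0.14). COL11A1 had 775 and 783 with the STING ORF against 709 and 747 with the GFP ORF and did not pass.

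The type IV genes of SUM159PT did not pass with the STING ORF. COL4A5 had 676 and 675 with the STING ORF against 659 and 662 with the GFP ORF, and COL4A6 had 349 and 339 with the STING ORF against 284 and 309 with the GFP ORF (limma adjusted p = 0.83 and 0.15). COL16A1 had 1047 and 1010.0 with the STING ORF against 1276 and 1186 with the GFP ORF (-0.26 ± 0.08), and COL12A1 had 2911 and 3078 with the STING ORF against 3127 and 3078 with the GFP ORF and did not pass. Of 7 genes of the other classes 4 were lower besides the rise of COL8A1. COL28A1 had 11.98 and 18.1 with the STING ORF against 26.2 and 28.3 with the GFP ORF (-0.84 ± 0.31), a call lost in 5 alternative settings. COL6A3 had 37.9 and 38.4 with the STING ORF against 61.03 and 62.2 with the GFP ORF (-0.68 ± 0.20), a call that DESeq2 lost (adjusted p = 0.20). COL6A2 had 497 and 416 with the STING ORF against 719 and 679 with the GFP ORF (-0.62 ± 0.10). COL6A1 had 577 and 487 with the STING ORF against 671 and 602 with the GFP ORF (adjusted p = 0.052), and COL18A1 had 761 and 672 with the STING ORF against 905 and 866 with the GFP ORF (-0.31 ± 0.09). The count of 12 calls was 7 without GFP ORF replicate 1, 7 without GFP ORF replicate 2 and 6 without filtering of low genes.

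Of 18 folding genes 2 were higher and 8 lower with the STING ORF in MDA-MB-436, and 6 were higher and 3 lower in SUM159PT. Over all genes 9.2% were higher and 11.9% lower in MDA-MB-436, and 13.2% and 12.8% in SUM159PT. In MDA-MB-436 the collagen chaperone SERPINH1 changed by -0.47 ± 0.07, PCOLCE by -0.59 ± 0.09 and the collagen-binding integrin subunit ITGA1 by 1.19 ± 0.16. In SUM159PT PLOD2 changed by 0.86 ± 0.08, the procollagen protease TLL1 by 0.73 ± 0.11, PCOLCE by -0.44 ± 0.09, ITGA1 by 0.91 ± 0.15 and DDR1 by -0.91 ± 0.10. Processing genes gave 1 higher and 1 lower call among 9 in MDA-MB-436 and 2 and 3 among 8 in SUM159PT, and receptors gave 3 higher calls among 6 and 2 higher and 3 lower among 7. Epithelial markers summed to 4621 to 4810.4 with the STING ORF and 6128 to 6999.7 with the GFP ORF in MDA-MB-436, and to 9315 to 9843 with the STING ORF and 11059.96 to 11318 with the GFP ORF in SUM159PT. In MDA-MB-436, STING ORF before GFP ORF, fibroblast markers summed to 255 to 285 and 312 to 315. Leukocyte markers there summed to 452 to 488 and 574 to 659, and endothelial markers to 55.4 to 57.03 and 41.3 to 48.6. In SUM159PT, in that order, fibroblast markers summed to 111 to 125 and 119 to 123. Leukocyte markers there summed to 4.27 to 19.96 and 5.66 to 6.98, and endothelial markers to 38.4 to 45.9 and 49.7 to 66.01. Their part in the collagen values was not tested.

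**Figure D4:**
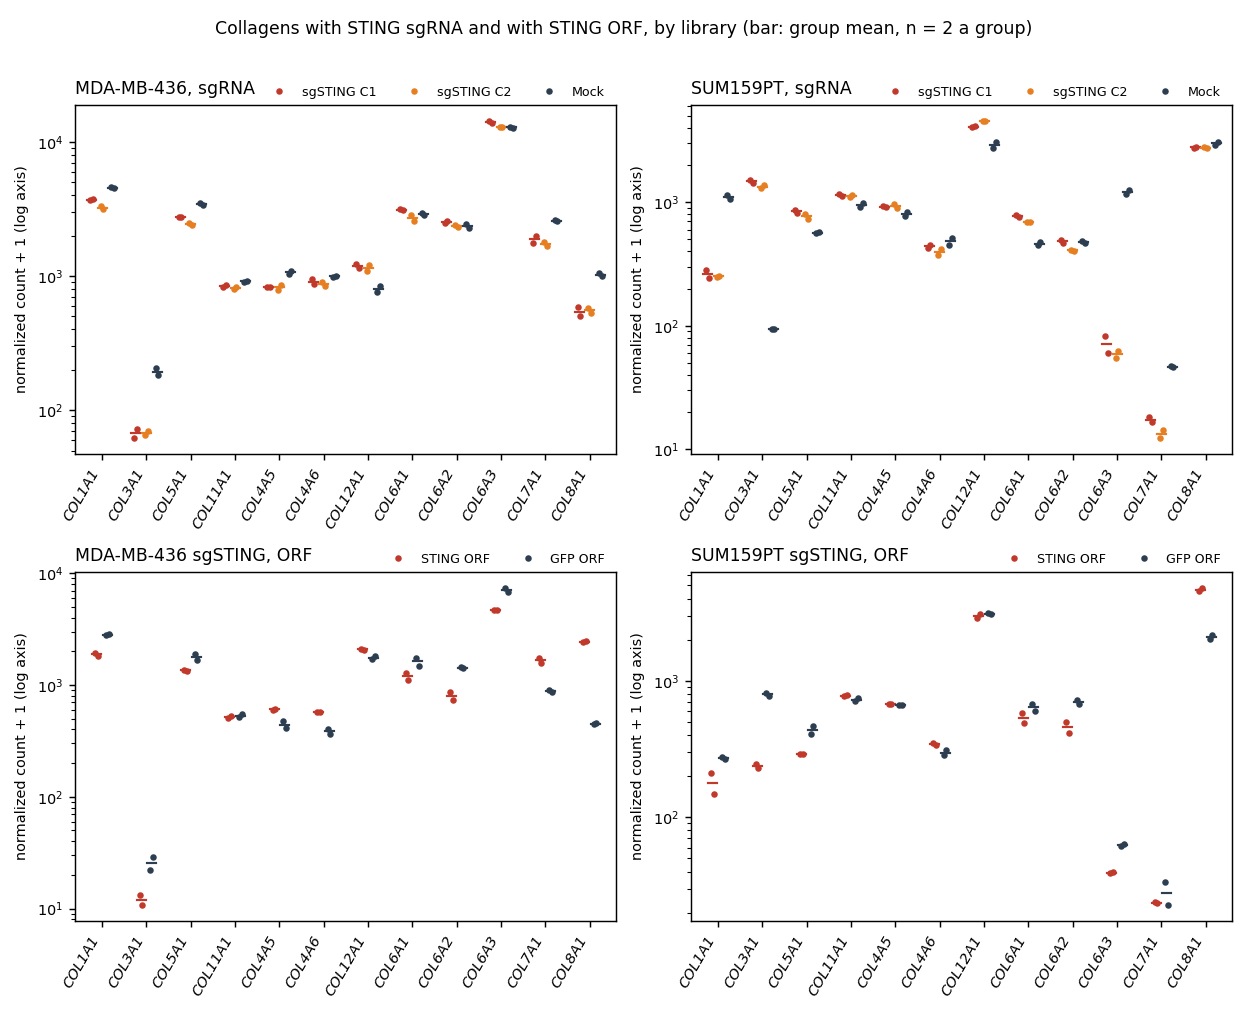
Normalized count + 1 (log axis) of 12 collagens with STING sgRNA C1 (red), C2 (orange) and Mock (dark blue) in the upper panels, and with STING ORF (red) and GFP ORF (dark blue) in sgRNA cells in the lower panels. Points are libraries and bars group means. COL8A1 is higher with the STING ORF in both lines, and COL3A1 with the sgRNA is lower in MDA-MB-436 and higher in SUM159PT.

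Py230 cells given doxycycline, in which Sting1 transcript was low, had more of the fibrillar collagens found in cartilage, led by Col11a1. Collagens took 1707, 1757 and 1696 RPM in Dox(+) libraries and 958, 1005 and 965 in Dox(-) libraries. These were 14230, 12729 and 14802 collagen reads in Dox(+) libraries and 7378, 9183 and 7534 in Dox(-) libraries. Col11a1 alone gave 18596 reads over the Dox(+) libraries and 2745 over the Dox(-) libraries, so the difference in the total lay largely in that gene. Of 22 collagens tested, 12 were higher, against 32.8% of all 14461 genes tested, and 6 were lower, against 35.1% of all genes. Their median change was 0.23, against -0.01 over all genes.

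Fibrillar genes were higher in 5 of 8 cases and lower in 1 in Py230. Col11a1 had 5928, 6161 and 6177 in Dox(+) libraries, against 965, 904 and 886 in Dox(-) libraries (2.73 ± 0.04, limma adjusted p = 2.1e-24). Col2a1, the main chain of cartilage fibrils, had 228, 229.9 and 214 in Dox(+) against 73.6, 64.5 and 72.5 in Dox(-) (1.66 ± 0.11), and Col11a2 changed by 1.15 ± 0.08. Col27a1 had 38.8, 48.6 and 49.3 in Dox(+) against 13.9, 16.1 and 15.99 in Dox(-) (1.51 ± 0.22). The 4 genes were higher in all 3 Dox(+) libraries than in any Dox(-) library. Col5a1 had 349, 418 and 375 in Dox(+) and 445, 497 and 458 in Dox(-) libraries (-0.30 ± 0.07, lower). Col3a1 had 40.7, 19.9 and 16.4 in Dox(+) against 3.2, 25.97 and 12.8 in Dox(-) (1.09 ± 0.44), with overlapping groups. Its call was lost by edgeR (adjusted p = 0.060) and DESeq2 (adjusted p = 0.37), and its change was 0.36 and 1.70 without Dox(-) replicate 1 and 2. Col1a1 had 125, 86.2 and 91.3 in Dox(+) against 61.8, 115 and 98.1 in Dox(-), and Col1a2 had 44.5, 2.21 and 4.57 in Dox(+) against 5.33, 37.6 and 12.8 in Dox(-), with no call for either. The groups of these 3 genes overlapped, and for all 3 the highest libraries were Dox(+) replicate 1 and Dox(-) replicate 2.

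Type IX chains, which bind to cartilage fibrils, went apart in Py230, where 3 of 5 FACIT genes were higher and 2 lower. Col9a1 had 485, 542 and 474 in Dox(+) libraries against 891, 844 and 910.2 in Dox(-) libraries (-0.82 ± 0.06), and Col9a3 had 78.6, 90.6 and 87.7 in Dox(+) against 45.8, 57.3 and 42.6 in Dox(-) (0.81 ± 0.15). Col20a1 had 25.6, 16.6 and 18.3 in Dox(+) against 52.2, 67.2 and 61.8 in Dox(-) (-1.55 ± 0.21). Col12a1 had 1248, 1382 and 1126 in Dox(+) and 970.2, 1094 and 1064 in Dox(-) libraries (0.26 ± 0.06). Col16a1 had 232, 239 and 237 in Dox(+) against 224, 194 and 197 in Dox(-) (0.20 ± 0.09), a call lost in 7 alternative settings.

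The pair Col4a5 and Col4a6 was slightly higher. Col4a5 had 1888, 1959.97 and 1908 in Dox(+) libraries against 1641, 1743 and 1691 in Dox(-) libraries (0.18 ± 0.04), and Col4a6 had 696, 685 and 702 in Dox(+) against 554, 534 and 546 in Dox(-) (0.35 ± 0.05). Of 6 genes of the other classes 2 were higher and 3 lower. Col25a1, a transmembrane collagen of neurons, had 13.3, 23.2 and 16.4 in Dox(+) against 31.99, 37.6 and 44.8 in Dox(-) (-1.09 ± 0.24), and Col7a1 had 32.2, 45.3 and 32.9 in Dox(+) against 12.8, 23.3 and 23.4 in Dox(-) (0.89 ± 0.25). Col18a1 had 615, 610.2 and 581 in Dox(+) and 778, 809.5 and 796 in Dox(-) libraries (-0.40 ± 0.05). The type VI chains went apart, with Col6a1 at 745, 867 and 754 in Dox(+) against 580.0, 652 and 618 in Dox(-) (0.35 ± 0.06) and Col6a2 at 125, 134 and 124 in Dox(+) against 179, 172 and 150.3 in Dox(-) (-0.38 ± 0.10).

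Folding genes gave 5 higher and 6 lower calls among 16 in Py230, processing genes 5 and 3 among 10, and receptors 4 and 2 among 6. The shares over all genes were 32.8% higher and 35.1% lower. The prolyl 3-hydroxylase P3h2 averaged 673 ± 29.2 in Dox(+) and 204 ± 13.3 in Dox(-) libraries (SD, n = 3 each, 1.72 ± 0.07). The galactosyltransferase Colgalt2 changed by 1.68 ± 0.11, Pcolce2 by 1.32 ± 0.08 and the fibrillar collagen receptor Ddr2 by -1.77 ± 0.15. Fibroblast markers, with Pdpn not listed, summed to 202 to 247 in Dox(+) and 380.5 to 423 in Dox(-) libraries. Epithelial markers summed to 11520 to 11780 in Dox(+) and 12250 to 13092 in Dox(-) libraries. Leukocyte markers summed to 639 to 709 in Dox(+) against 711 to 748 in Dox(-). Endothelial markers summed to 18.8 to 21.8 in Dox(+) against 13.9 to 17.06 in Dox(-). The part of these lists in the collagen values of Py230 was not tested. Myc itself was at 1020.1, 964 and 998 in Dox(+) libraries and 2769.9, 3281 and 3274 in Dox(-) libraries.

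**Figure D5:**
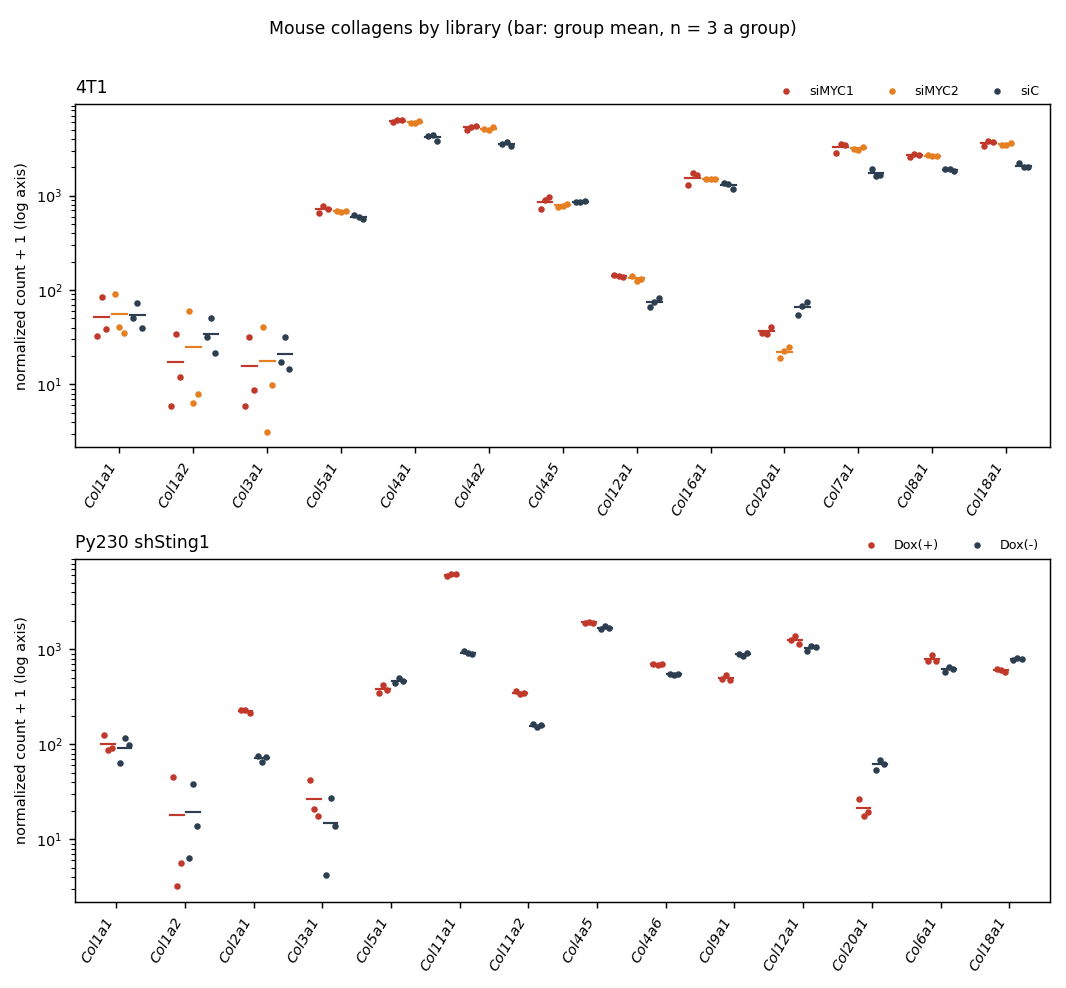
Normalized count + 1 (log axis) of mouse collagens in 4T1 cells after siMYC1 (red), siMYC2 (orange) and siC (dark blue), and in Py230 cells with Dox(+) (red) and Dox(-) (dark blue), each point a library and each bar a group mean. Col4a1, Col4a2, Col7a1 and Col18a1 sit above siC in 4T1, and Col11a1 stands 6.63-fold higher with Dox(+) in Py230.

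Across the 8 human comparisons few collagens kept 1 direction, and several of these comparisons concern the same lines without sharing libraries. COL12A1, COL4A5, COL4A6 and COL8A1 were each higher in 5 of 8, and COL1A1 and COL18A1 were each lower in 5 of 8. COL3A1 was lower in 5 of the 7 in which it was tested. For COL4A5, COL4A6 and COL8A1 both MYC siRNA comparisons were among the 5. Per human comparison, 9.2% to 35% of all genes were higher and 11.9% to 34.5% lower. The share of all genes with 5 calls in 1 direction is not given here, so these counts only describe the named genes. COL1A1 gave -0.21 and 0.72 in Tax-R cells of MDA-MB-436 and SUM159PT, 3.84 and 2.84 after MYC siRNA, -0.39 and -2.09 with the STING sgRNA, and -0.58 and -0.62 with the STING ORF. COL8A1 gave 0.32 and -0.29, 1.36 and 0.69, -0.90 and -0.11, and 2.43 and 1.15 in the same order. The COL8A1 value with the sgRNA in SUM159PT was a small change whose call DESeq2 lost (adjusted p = 0.070). COL1A1 was lower with the sgRNA and with the ORF in both lines. COL12A1 moved between -0.25 and 0.57 in the 8 comparisons.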

How the data were processed

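Total RNA (Maxwell RSC simplyRNA, per the labels' protocols) of 55 libraries was sequenced. HISAT2, featureCounts, StringTie and DESeq2 are named in the submitters' processing notes, and the genome build and strand setting are not given in the sources used here. The authors deposited a normalized signal per gene, counts divided by a size factor. Dividing by the value of 1 read in each library gave whole reads for 100% of values, within 0.05, and library depth came from these reads. Rows averaging 10 or more in a table were tested on log2(value + 1) with limma 3.58.1 (R 4.3.3, trend, two-sided, Benjamini-Hochberg over all genes of a table, threshold 0.05). With 2 perturbed groups, their mean was set against the control. edgeR 4.0.16 and DESeq2 1.42.0 on the recovered reads, other pseudocounts, filters and scalings, a replicate block and leaving out each library were alternatives. The scripts were tested on simulated data. Members and lists were chosen with earlier results of these data known.

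Values are printed for 17 collagens wherever they passed, for up to 3 called members per class with the largest change, and for up to 3 called genes per pathway list. Same-numbered libraries deviated together with correlations of -0.0913 to 0.110 and were not treated as pairs. No column was left unmapped. Gene lengths are GENCODE exon unions. Intervals and floors of 3 reads cover counting error only.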

Additional observations from a re-analysis of the deposited data

Results flagged for a closer look

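The collagens below passed the threshold in opposite directions in MDA-MB-436 and SUM159PT, with every tested library of a line on one side of its controls. The difference between the lines was not tested.

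In Tax-R against parental cells, COL1A1 changed by -0.21 in MDA-MB-436 and 0.72 in SUM159PT, and COL18A1 by -0.25 and 0.68. COL6A1 changed by -0.66 and 0.42. COL12A1 changed by 0.18 and -0.25, and COL8A1 by 0.32 and -0.29, in the same order of lines.

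With STING sgRNA against Mock, COL3A1 changed by -1.52 in MDA-MB-436 and 3.90 in SUM159PT. COL5A1 changed by -0.40 and 0.50, COL4A5 by -0.37 and 0.20, and COL11A1 by -0.14 and 0.25. The COL11A1 call in MDA-MB-436 was lost by DESeq2 (adjusted p = 0.091).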

How the results depend on the processing

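Of 2665 alternative values of single genes, 2512 kept their side of the threshold, 124 fell below it and 29 passed it. The sign was opposite to the reported one in 49 of the 2665 values, over 23 gene and comparison pairs, and in each of the 49 neither the reported nor the alternative value passed the threshold. Leaving out 1 library at a time gave 19 to 24 collagens called in MDA-MB-436 Tax-R cells, 18 to 20 in SUM159PT Tax-R cells, 16 in every case after MYC siRNA in MDA-MB-436, 18 to 20 in SUM159PT and 10 to 14 in 4T1. It gave 11 to 14 and 15 to 16 with STING sgRNA in MDA-MB-436 and SUM159PT, 11 to 13 and 7 to 13 with the STING ORF, and 16 to 18 in Py230. Without a filter on low values the STING ORF counts were 8 in place of 13 in MDA-MB-436 and 6 in place of 12 in SUM159PT. Between siMYC2 and siMYC1 in MDA-MB-436 the count of 1 became 2 with a pseudocount of 4, 0 without a filter, 0 after quantile normalization, 3 by edgeR, 2 by DESeq2 and 0 to 2 without 1 library. Between C2 and C1 the count of 5 in MDA-MB-436 became 0 without a filter and 0 to 5 without 1 library, and the count of 4 in SUM159PT became 0 without a filter, 2 by DESeq2 and 1 to 5 without 1 library. The causes were not tested. Without 1 library, COL21A1 in MDA-MB-436 Tax-R cells changed by -2.23 or -3.58 (without Tax-R replicate 1 or 2).

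The replicate numbers did not pair the libraries. With the replicate number as a block, 212 gene values kept their call and 3 passed the threshold, and the count between siMYC2 and siMYC1 in MDA-MB-436 was 2.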
